A study of Mus musculus with 6 samples.

Results

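Hox genes encode homeodomain transcription factors and lie in 4 clusters in the mouse genome, Hoxa, Hoxb, Hoxc and Hoxd. Within a cluster the genes are numbered by paralogue group from the 3' end (group 1) to the 5' end (group 13), and in the embryo genes of low number are used towards the head and genes of high number towards the tail, the hindgut and the urogenital system. Adult fibroblasts and fat depots keep such a position-dependent pattern, and Hox transcripts are among those that differ between fat depots of the body. The proteins bind DNA together with cofactors of the Pbx, Meis and Pknox families, and Polycomb proteins keep unused Hox genes silent.

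All genes of the 4 clusters with a row in the table of expression values were taken, chosen by symbol alone. They were 39 of 22134 genes in all, with 11 in Hoxa, 10 in Hoxb, 9 in Hoxc and 9 in Hoxd. Total RNA depleted of ribosomal RNA was sequenced from adipose tissue of wild-type (WT) mice in 6 libraries. Creeping fat, the mesenteric fat that spreads over injured bowel, came from 3 samples after repeated cautery injury of the colon. Mesenteric adipose tissue of 3 control samples without that injury was the comparison. The sources used here do not give strain, sex, age or how many animals the samples came from, so the p-values measure variation among these samples and part of it may be technical.

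Values are FPKM (fragments relative to gene length and to the library's depth), and the recovered library totals ranged from 31186018 to 43415696 reads. Adipocyte markers were present in every library but lower in creeping fat, where the 12 genes summed to 813 to 1787 FPKM against 4319 to 11431 FPKM in the controls, and 12 of 12 were called lower. The 11 seminal vesicle genes of the table summed to 16798 to 32223 FPKM in creeping fat and to 0.171 to 55.9 FPKM in the controls, where 1 of them was at 0 throughout. The 28 pancreatic acinar genes summed to 29.8 to 5877 FPKM in creeping fat and to 17817 to 45532 FPKM in the controls. The 12 fibroblast genes summed to 8407 to 10742 FPKM in creeping fat and 971 to 1447 FPKM in the controls, and 9 were called higher. Of all genes tested, 9.35% were called higher and 6.81% lower. In bulk samples fewer cells of a type and less RNA per cell cannot be told apart. Control 2 stood apart from the other controls, with correlations of log2 values between controls as low as 0.898, and results that rest on it are given with and without it.

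A gene was tested when it reached 1 FPKM in at least 3 of the 6 libraries, and fold changes are differences of log2(FPKM + 1), creeping fat minus control, with limma's moderated standard error (SE) and a Benjamini-Hochberg adjusted p over all 12812 genes tested. Of the 39 Hox genes 30 were tested. Creeping fat was called higher (adjusted p under 0.05) for 4 of the 30, Hoxa11, Hoxa13, Hoxb8 and Hoxd13, against 9.35% of all genes tested. It was called lower for 3 of the 30, Hoxc5, Hoxc6 and Hoxc8, against 6.81% of all genes tested. The share of Hox genes called in either direction was thus close to that of genes at large, and the median fold change of the Hox genes was -0.005, beside 0.017 for all genes. The called genes were set apart by their place. The 3 called lower all lay in groups 5 to 8 of Hoxc. Of the 4 called higher, 3 lay at the 5' end of Hoxa or Hoxd. That arrangement was read off after the values were seen and was not tested, and Hoxa13 and Hoxd13 passed the filter only through creeping fat.

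**Figure D1:**
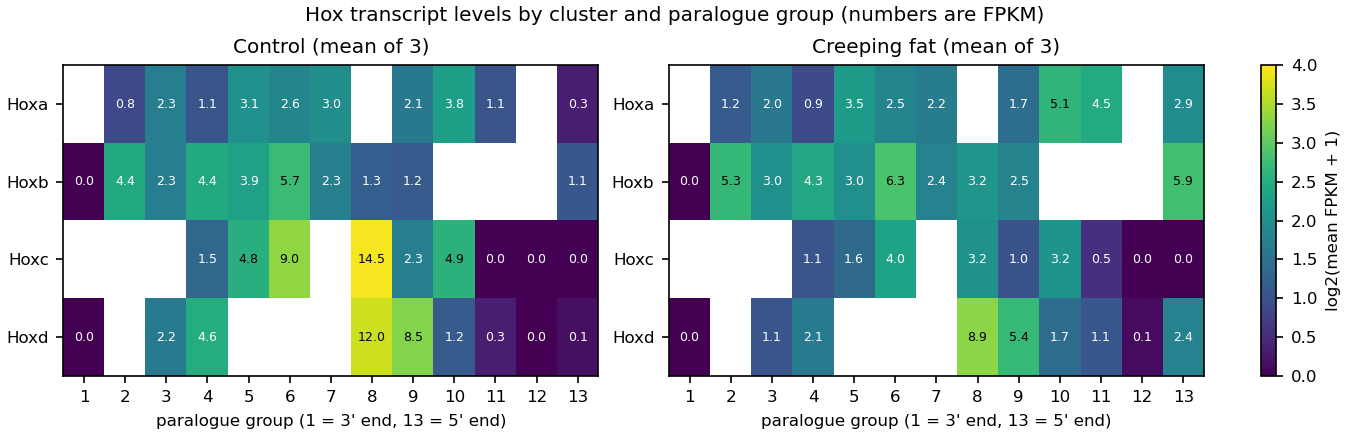
Mean FPKM of Hox genes in the 3 control and 3 creeping fat libraries, with clusters as rows and paralogue groups 1 to 13 as columns. Colour is log2(mean FPKM + 1), numbers are FPKM, and white squares are positions not shown or without a gene in the table. Hoxc8 is the highest square in the controls at 14.5 FPKM and stands at 3.17 FPKM in creeping fat, while the group 13 genes of Hoxa, Hoxb and Hoxd stand at 0.12 to 1.1 FPKM in controls and 2.41 to 5.88 FPKM in creeping fat. Hoxb13, the highest of these in both groups, was not called and its groups overlapped. Hoxc13 stands at 0.004 FPKM in both.

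On GRCm38 (mm10), Hoxa covers 105.3 kb of chromosome 6, Hoxb 173.9 kb of chromosome 11, Hoxc 115.8 kb of chromosome 15 and Hoxd 96.83 kb of chromosome 2, in the GENCODE M21 annotation. RefSeq promoter windows of 300 bases, 250 before and 50 after the start of transcription, were found for 22 of the 39 genes, in 24 windows. They are shown for the 4 genes called higher, which lie on 3 chromosomes and share the direction of their call, though not their order across libraries. Capitals mark GGGCGG, the GC box read by Sp1-type factors, TATAAA, the TATA box, and TTTATG, a core read by Cdx factors, each searched on both strands, so that their reverse complements are also in capitals. The windows are given 5' to 3' on the strand of the gene.
The Hoxa13 window is chr6:52260831-52261130 on the minus strand and the Hoxa11 window is chr6:52245761-52246060 on the minus strand. The Hoxd13 window is chr2:74667975-74668274 on the plus strand and the Hoxb8 window is chr11:96281655-96281954 on the plus strand, all on GRCm38.p6.
Hoxa13: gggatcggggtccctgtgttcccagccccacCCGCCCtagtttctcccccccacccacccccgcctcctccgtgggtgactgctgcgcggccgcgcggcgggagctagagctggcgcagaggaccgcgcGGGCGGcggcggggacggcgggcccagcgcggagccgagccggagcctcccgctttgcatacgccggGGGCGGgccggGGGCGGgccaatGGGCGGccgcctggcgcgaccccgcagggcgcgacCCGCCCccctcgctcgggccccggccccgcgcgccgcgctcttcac
Hoxd13: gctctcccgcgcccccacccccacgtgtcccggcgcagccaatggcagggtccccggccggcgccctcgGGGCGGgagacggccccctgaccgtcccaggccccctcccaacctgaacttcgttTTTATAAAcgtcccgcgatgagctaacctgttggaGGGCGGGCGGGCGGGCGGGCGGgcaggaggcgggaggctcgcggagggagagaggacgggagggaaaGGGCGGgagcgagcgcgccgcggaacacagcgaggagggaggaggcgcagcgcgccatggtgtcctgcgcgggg
Hoxa11: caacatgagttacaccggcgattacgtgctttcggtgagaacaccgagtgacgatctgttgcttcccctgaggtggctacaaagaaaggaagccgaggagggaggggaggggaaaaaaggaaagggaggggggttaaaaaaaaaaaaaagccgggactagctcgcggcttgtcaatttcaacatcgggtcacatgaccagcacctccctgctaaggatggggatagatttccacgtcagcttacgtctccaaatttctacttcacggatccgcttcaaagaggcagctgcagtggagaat
Hoxb8: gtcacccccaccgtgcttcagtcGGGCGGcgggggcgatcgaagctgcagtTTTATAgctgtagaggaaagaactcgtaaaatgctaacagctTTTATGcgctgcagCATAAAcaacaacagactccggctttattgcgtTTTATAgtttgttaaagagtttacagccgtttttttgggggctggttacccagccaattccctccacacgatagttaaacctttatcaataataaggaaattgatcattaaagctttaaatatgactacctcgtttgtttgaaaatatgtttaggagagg

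The 4 windows did not share a composition. The group 13 windows were rich in CpG, with 45 CpG in Hoxa13 and 37 in Hoxd13, beside a median of 14.5 over the 24 Hox windows and 7 over all promoter windows. Hoxa11 held 15 and Hoxb8 held 13. The GC box occurred 6 times in Hoxa13, 7 times in Hoxd13 (in part as overlapping repeats), 1 time in Hoxb8 and not in these letters in the Hoxa11 window. It was found in 41.7% of Hox windows and 35.7% of all windows. TATAAA was matched 2 times in Hoxd13, on both strands of overlapping letters, and 2 times in Hoxb8, and occurred in 16.7% of Hox windows and 13.6% of all windows. TTTATG was matched 2 times in Hoxb8 and not in the other 3, and occurred in 20.8% of Hox windows and 11.9% of all windows. A match is a description of the letters and not a sign of binding.

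Groups 11 and 13, at the 5' end of the clusters, held 3 of the 4 genes called higher in creeping fat. Hoxa13, which patterns the digits, the hindgut end and the genital tubercle in the embryo, was at 3.67, 1.67 and 3.26 FPKM in the creeping fat libraries (1 to 3 in this order, here and later) and at 0.43, 0.049 and 0.31 FPKM in the control libraries. The controls rested on 22, 2 and 18 recovered reads, and the groups did not overlap. Means were 2.87 ± 1.06 FPKM in creeping fat and 0.264 ± 0.195 FPKM in controls (SD, n = 3 each), a ratio of 10.85, and the fold change was 1.58 (SE 0.26, limma adjusted p = 0.009).

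Hoxd13, the group 13 gene of the Hoxd cluster with an overlapping role in digits and the urogenital tract, was also higher. It stood at 3.43, 1.37 and 2.43 FPKM in creeping fat and at 0, 0.32 and 0.036 FPKM in the controls, which rested on 0, 26 and 4 reads. All 3 creeping fat libraries were above all controls, and the fold change was 1.57 (SE 0.26, limma adjusted p = 0.010). Both genes passed the filter only through creeping fat, so that a difference was built into their being tested. Both calls held in all 14 alternative settings that tested these genes, while the size of the fold change varied. Neither gene passed the stricter filter of a mean of 5 FPKM. It ran from 1.42 (quantile normalization) to 3.66 (voom on recovered reads) for Hoxa13 and from 1.36 (without creeping fat 1) to 5.80 (voom) for Hoxd13, and adding 0.1 FPKM in place of 1 gave 3.14 and 3.72.

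Hoxa11, which acts with its paralogues in the forearm, the kidney and the uterus, was higher in every creeping fat library. It stood at 5.95, 3.57 and 3.87 FPKM in creeping fat and at 1.96, 0.098 and 1.15 FPKM in controls, with a fold change of 1.49 (SE 0.38, limma adjusted p = 0.039). Control 2, with 7 reads, was far below the other controls, and without it the fold change was 1.09 (SE 0.23, limma adjusted p = 0.012). The call was lost in 8 of the 14 alternatives that tested this gene. Leaving out any 1 creeping fat library or control 3 gave adjusted p of 0.083 to 0.143, and adding 0.1 in place of 1, no filter, quantile normalization and voom on recovered reads gave 0.072 to 0.093. The antisense gene Hoxa11os covers 35% of its exon bases, and since the sources used here do not say how strand was treated in counting, reads of the pair cannot be told apart.

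**Figure D2:**
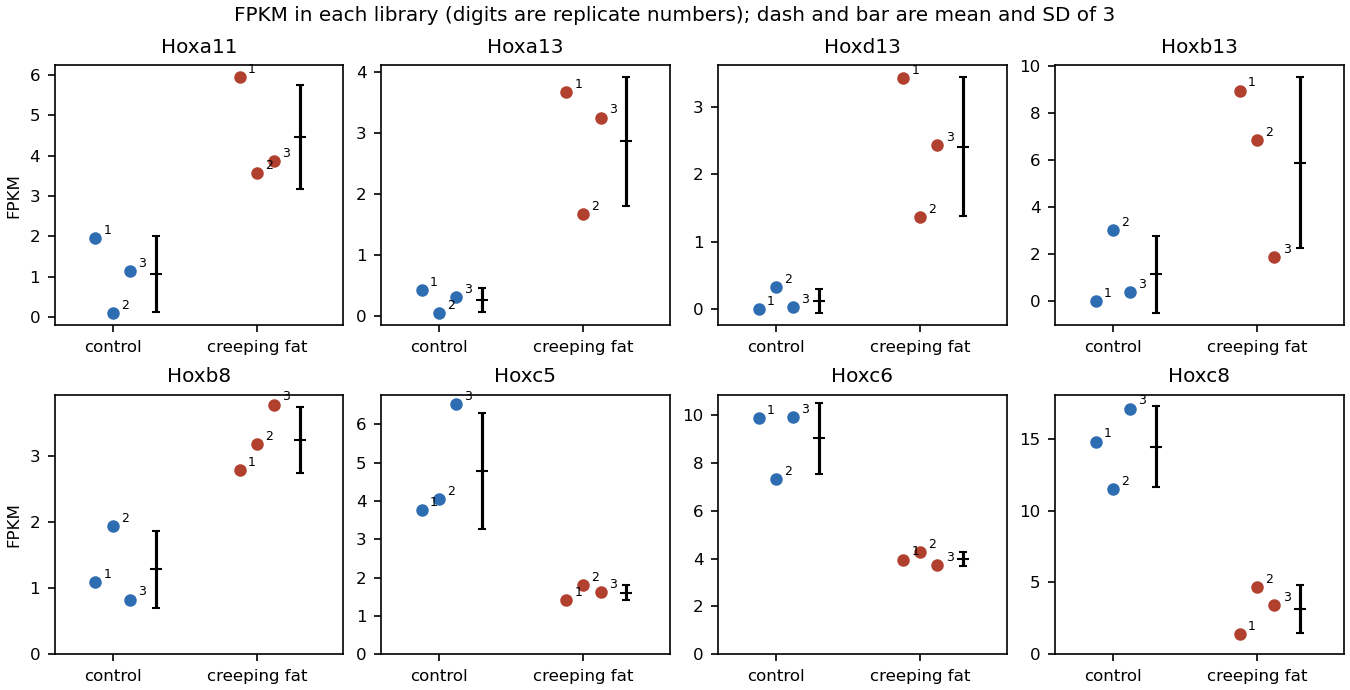
FPKM in each library for the 7 called Hox genes and Hoxb13, with controls in blue, creeping fat in red, replicate numbers beside the points and the mean and SD of 3 libraries as a dash and bar. The groups do not overlap in any panel but that of Hoxb13, where control 2 at 3.02 FPKM lies above creeping fat 3 at 1.85 FPKM.

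Hoxb13, the isolated 5' gene of Hoxb and a marker of hindgut and prostate epithelium, was not called (fold change 1.78, SE 0.64, limma adjusted p = 0.111). It stood at 8.95, 6.84 and 1.85 FPKM in creeping fat and at 0, 3.02 and 0.35 FPKM in controls. Creeping fat 1 and 2 were high, and control 2 lay above creeping fat 3, so the groups overlapped. Hoxc13, the group 13 gene of Hoxc, had at most 1 read in any library. Summed over the 4 genes, group 13 came to 16.1, 9.88 and 7.53 FPKM in creeping fat and to 0.44, 3.39 and 0.70 FPKM in controls, and the groups did not overlap.

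The remaining 5' genes under the filter were low throughout. Hoxd11, which acts with Hoxa11 in the forearm and kidney, stood at 1.68, 0.65 and 1.02 FPKM in creeping fat and at 0.27, 0.049 and 0.48 FPKM in controls, without overlap. Hoxc11 had 26, 4 and 14 reads in creeping fat and 1, 0 and 0 in controls. Hoxd12 had 11, 9 and 2 reads in creeping fat and 0, 0 and 1 in controls. Hoxc12 had 1 read in creeping fat 1 and none in the other libraries. None of these was called when the filter was left out (limma adjusted p = 0.092 for Hoxd11, 0.114 for Hoxc11, 0.157 for Hoxd12 and 0.780 for Hoxc12).

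In groups 9 and 10, just 3' of these, no gene was called. Hoxa9, which also drives blood progenitor growth, had a fold change of 0.02 (SE 0.47) and Hoxa10, a regulator of the uterus, of 0.54 (SE 0.50). Hoxd10, at 1.66 ± 0.35 FPKM in creeping fat and 1.21 ± 0.19 FPKM in controls, had 0.26 (SE 0.17), and Hoxc10, reported as a brake on browning in subcutaneous fat, -0.13 (SE 0.66). Hoxb9, a gene of the thoracic skeleton, stood at 1.97, 3.04 and 2.402 FPKM in creeping fat and at 1.08, 1.66 and 0.90 FPKM in controls. Its groups did not overlap, but it was not called (fold change 0.65, SE 0.20, limma adjusted p = 0.071). Hoxd9 lay the other way without overlap, at 5.19, 4.23 and 6.82 FPKM in creeping fat and 9.21, 7.51 and 8.85 FPKM in controls (fold change -0.59, SE 0.19, limma adjusted p = 0.078). Hoxc9, a gene of the same thoracic group, stood at 0.72, 1.09 and 1.25 FPKM against 3.31, 0.72 and 2.83 FPKM and had -0.60 (SE 0.36, limma adjusted p = 0.313).

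The 3 genes called lower in creeping fat were central genes (groups 4 to 8) of Hoxc. Hoxc8, a gene of the lower thoracic region that has been linked to white fat precursors and to repression of the brown fat programme, was the most abundant Hox gene of the controls. It was at 14.8, 11.5 and 17.1 FPKM in the controls and at 1.38, 4.69 and 3.44 FPKM in creeping fat, and the groups were far apart. Means were 14.5 ± 2.83 FPKM in controls and 3.17 ± 1.68 FPKM in creeping fat (SD, n = 3 each), a ratio of 4.57, and Hoxc8 fell by 1.97 on the log2 scale (SE 0.33, limma adjusted p = 0.011). Without control 3 the adjusted p was 0.051, and the call held in the other 14 alternatives.

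Hoxc6, which marks the start of the thorax, stood at 9.88, 7.33 and 9.92 FPKM in controls and at 3.96, 4.28 and 3.72 FPKM in creeping fat. It fell by 1.00 on the log2 scale (SE 0.16, limma adjusted p = 0.009), and the call held in 15 of 15 alternatives. Hoxc5, a cervical and upper thoracic gene, stood at 3.76, 4.04 and 6.52 FPKM in controls and at 1.41, 1.79 and 1.62 FPKM in creeping fat. It fell by 1.12 on the log2 scale (SE 0.21, limma adjusted p = 0.014). Without creeping fat 1 or without creeping fat 3 its adjusted p was 0.069 or 0.060. Hoxc5 and Hoxc10 share 166 exon bases in the annotation, 5.37% of those of Hoxc5, so some reads may be counted for either gene. Hoxc4, at the 3' end of the cluster, was not called (fold change -0.31, SE 0.19, limma adjusted p = 0.349).

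All 6 tested Hoxc genes had a negative fold change, with a median of -0.80. The cluster summed to 39.3, 25.6 and 46.3 FPKM in controls and to 11.95, 15.8 and 15.8 FPKM in creeping fat, which is 37.1 ± 10.5 against 14.5 ± 2.23 FPKM (mean ± SD, n = 3 each), without overlap. No other cluster was lower throughout. Hoxa summed to 27.0 ± 3.65 FPKM in creeping fat and 20.2 ± 3.89 FPKM in controls, higher without overlap. The margin was from 22.96 FPKM in control 1 to 24.7 FPKM in creeping fat 3. Of the 9 tested Hoxa genes, only Hoxa11 and Hoxa13 were higher without overlap. Hoxb summed to 36.0 ± 5.46 and 26.6 ± 7.24 FPKM, and Hoxd to 22.8 ± 5.68 and 28.9 ± 8.28 FPKM, both with overlap. All 39 genes together came to 100.4 ± 2.53 FPKM in creeping fat and 112.8 ± 15.2 FPKM in controls, and these totals overlapped. These sums were given no test, since the members were chosen with results known.

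**Figure D3:**
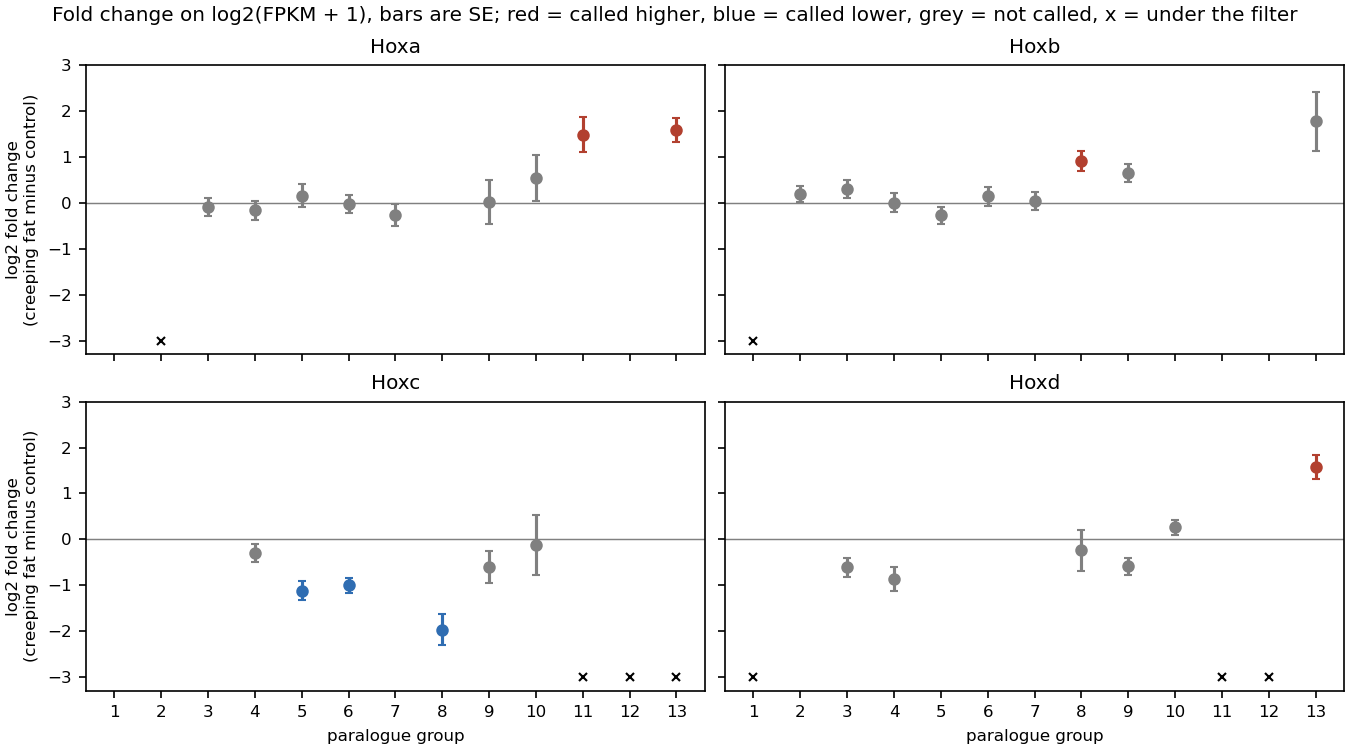
Fold change of log2(FPKM + 1), creeping fat minus control, with its SE for the 30 tested Hox genes along paralogue groups 1 to 13 of each cluster. Red points were called higher, blue points lower and grey points not called, and crosses at the lower edge mark 8 genes under the filter. Hoxc points lie below 0 and the points of groups 11 and 13 lie above it.

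Hoxb8, which acts in the spinal cord and in blood progenitors, was the 1 central gene called higher. It stood at 2.78, 3.18 and 3.78 FPKM in creeping fat and at 1.09, 1.94 and 0.83 FPKM in controls, without overlap, and the fold change was 0.92 (SE 0.22, limma adjusted p = 0.032). It was called in 7 of the 14 alternatives that tested it. Leaving out any 1 creeping fat library, control 1 or control 3 ended the call, with adjusted p of 0.083 to 0.122, and without the filter it was 0.059. The other Hoxb genes of groups 2 to 7 stayed near 0, from -0.27 (SE 0.19) for Hoxb5 to 0.30 (SE 0.20) for Hoxb3, and were not called. Hoxb6, at 5.23, 7.42 and 6.18 FPKM in creeping fat and 6.07, 6.86 and 4.03 FPKM in controls, was the most abundant of the cluster in both groups. Hoxb4, a regulator of blood stem cells, averaged 4.31 ± 0.45 FPKM in creeping fat and 4.39 ± 1.41 FPKM in controls (fold change 0.01, SE 0.21). Hoxb7 averaged 2.42 ± 0.37 and 2.35 ± 0.65 FPKM (fold change 0.04, SE 0.19). Hoxb3os, an antisense gene, covers 52.9% of the exon bases of Hoxb3 and 27.3% of those of Hoxb2, so their values may hold its reads.

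Hoxa genes of groups 3 to 7 lay between -0.26 (SE 0.24) for Hoxa7 and 0.16 (SE 0.25) for Hoxa5, a gene of the lung and trunk that is also well expressed in fat, and none was called. Hoxa3, a gene of the pharyngeal glands, averaged 2.04 ± 0.34 FPKM in creeping fat and 2.27 ± 0.68 FPKM in controls. Hoxa4 averaged 0.88 ± 0.33 and 1.10 ± 0.33 FPKM, and Hoxa6 2.48 ± 0.24 and 2.57 ± 0.78 FPKM. All 5 of these Hoxa genes overlapped between groups. The antisense gene Hoxaas3 covers 20.4% of the exon bases of Hoxa7, whose value may hold its reads. In Hoxd the 3' and central genes had negative fold changes, and none was called. Hoxd4 stood at 1.99, 1.25 and 3.14 FPKM in creeping fat and at 4.04, 3.98 and 5.67 FPKM in controls, without overlap (fold change -0.86, SE 0.25, limma adjusted p = 0.064). Hoxd3 stood at 1.22, 0.63 and 1.40 FPKM against 1.82, 1.90 and 2.75 FPKM, also without overlap (fold change -0.61, SE 0.21, limma adjusted p = 0.102). The exons of both share 388 bases, and Gm28230, a gene of the same strand that overlaps both, covers 53.1% of the exon bases of Hoxd3 and 39.1% of those of Hoxd4, so their values are not fully independent. Hoxd8, the most abundant Hox gene of creeping fat, stood at 10.1, 6.75 and 9.98 FPKM there and at 14.6, 4.50 and 16.9 FPKM in controls, with overlap (fold change -0.24, SE 0.45).

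Of the 3' genes, Hoxb1, which acts in the early hindbrain, and Hoxd1 were at 0 in all 6 libraries. A count of 0 allows up to 0.030 to 0.041 FPKM for Hoxb1 and 0.037 to 0.052 FPKM for Hoxd1 (3 reads, counting error only). Hoxa2 ranged from 0.79 to 1.63 FPKM with overlap. Hoxb2, with 4.47, 6.89 and 4.58 FPKM against 4.44, 4.45 and 4.35 FPKM, was not called (fold change 0.20, SE 0.18), and its groups were apart by the distance from 4.454 to 4.465 FPKM.

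By position, the 4 tested genes of groups 1 to 3 held 0 calls, the 15 of groups 4 to 8 held 1 higher and 3 lower, and the 11 of groups 9 to 13 held 3 higher and 0 lower by limma. Beside these counts, 9.35% of all genes tested were called higher and 6.81% lower. At an unadjusted p under 0.05 groups 1 to 3 held 0 higher and 1 lower, groups 4 to 8 held 1 higher and 4 lower, and groups 9 to 13 held 5 higher and 1 lower. limma's voom on recovered reads called 0 in the first of these bands, 1 higher and 3 lower in the second, and 2 higher and 0 lower in the third. In groups 9 to 13, 4 genes were higher and 1 was lower without overlap between groups. Each of these counts of higher genes in groups 9 to 13 holds Hoxa13 and Hoxd13. Both passed the filter only through creeping fat, so the counts are no test of position. Over all 30 tested genes, 6 were higher without overlap, against 20.2% of all genes tested, and 6 were lower, against 16.9%. Both shares are near that background. At an unadjusted limma p under 0.05 there were 6 in each direction, and the share of all genes at that cut is not given here. Genes of groups 9 to 13 made up 44.9%, 32.6% and 35.6% of all Hox FPKM in the creeping fat libraries and 27.0%, 17.0% and 26.2% in the controls, without overlap. Their summed level itself overlapped, at 46.4, 32.4 and 35.0 FPKM in creeping fat and 31.5, 16.3 and 32.9 FPKM in controls. The sum of groups 4 to 8 was lower without overlap, at 49.3 ± 4.33 against 73.7 ± 7.21 FPKM. Within single clusters the share overlapped in Hoxa and Hoxd and did not in Hoxb and Hoxc. The margins were small, from 13.42% in control 2 to 13.47% in creeping fat 3 for Hoxb. For Hoxc the margin was from 24.2% in control 3 to 25.3% in creeping fat 2. The Hoxc sum of groups 9 to 13 was itself lower on average in creeping fat, at 4.69 ± 0.76 against 7.25 ± 5.34 FPKM, with overlap.

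Several 5' genes were far lower in control 2 than in the other controls. Compared with the mean of controls 1 and 3, it was at less than 1 in 2 for 8 of the 30 tested Hox genes (26.7%), Hoxa7, Hoxa9, Hoxa10, Hoxa11, Hoxa13, Hoxc9, Hoxc10 and Hoxd8, while 4.79% of all tested genes were that low. The cut of 1 in 2 was chosen after the values were seen. Hoxa9 stood at 2.97, 0.20 and 3.08 FPKM in the controls and Hoxa10 at 5.12, 0.79 and 5.50 FPKM. Hoxc10 stood at 6.01, 0.45 and 8.39 FPKM, a level in control 2 that was 15.9 times lower than the mean of the other controls. Other genes went the opposite way, with control 2 the highest control: 3 of 4 in groups 1 to 3, 8 of 15 in groups 4 to 8 and 4 of 11 in groups 9 to 13 (Hoxb9, Hoxb13, Hoxd10 and Hoxd13). The share of all tested genes with control 2 as the highest control is not given here.

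Without control 2 limma called 7 Hox genes higher, against 22.6% of all genes tested, and 10 lower, against 14.5%. The 7 calls of the full comparison were among them. Hoxb3, Hoxb9 and Hoxb13 were added on the higher side, and Hoxa7, Hoxa9, Hoxc9, Hoxc10, Hoxd4, Hoxd8 and Hoxd9 on the lower side. Hoxc10 then had a fold change of -0.96 (SE 0.18, limma adjusted p = 0.007) and Hoxa9 of -0.57 (SE 0.15, limma adjusted p = 0.027), where all libraries had given 0.02. Hoxa10 moved from 0.54 to -0.06 (SE 0.20) and stayed uncalled. Hoxa13 and Hoxd13 had 1.46 (SE 0.25) and 1.70 (SE 0.26). The median fold change of all genes in that fit was 0.13, beside 0.017 with control 2.

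**Figure D4:**
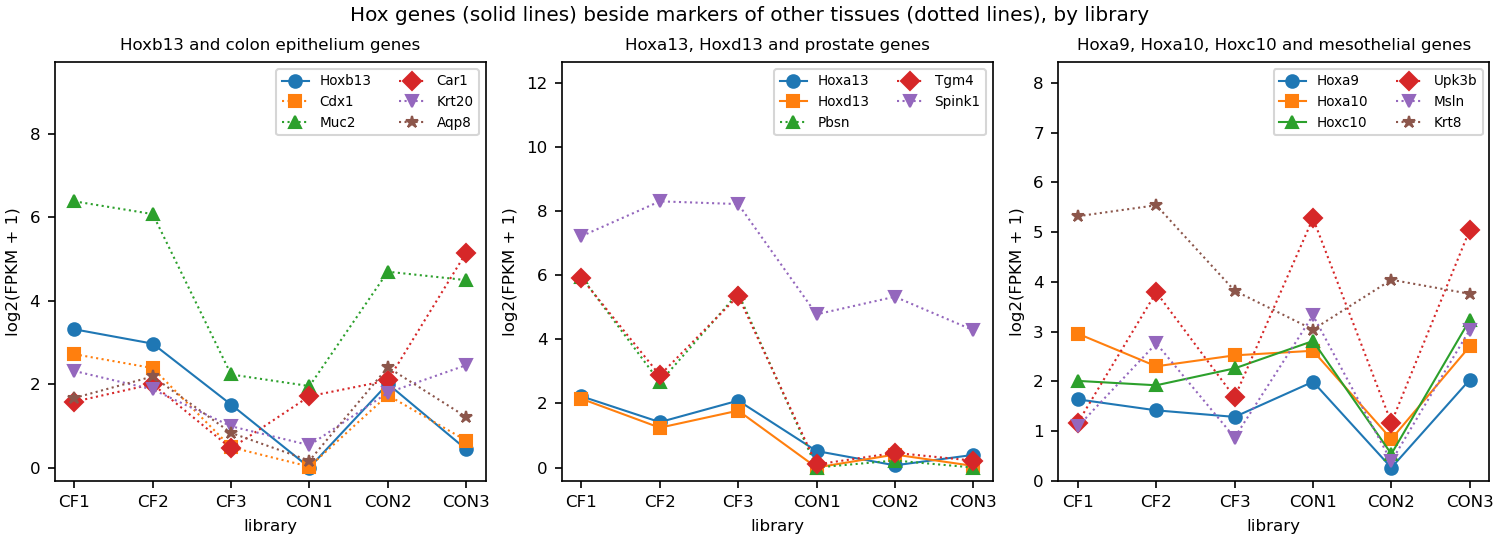
log2(FPKM + 1) by library (CF, creeping fat; CON, control) for Hox genes, on solid lines, and marker genes of other tissues, on dotted lines. Hoxb13, Cdx1 and Muc2 are highest in creeping fat 1 and 2, while Car1 and Krt20 peak in control 3 and Aqp8 in control 2. Hoxa13, Hoxd13, Pbsn and Tgm4 are lowest in creeping fat 2 among the creeping fat libraries and Spink1 is not, and Hoxa9, Hoxa10, Hoxc10, Upk3b and Msln are lowest in control 2 among the controls while Krt8 is highest there.

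Genes of other tissues varied between libraries beside the 5' Hox genes. Hoxb13 was highest in creeping fat 1 and 2 and next highest in control 2. So were Muc2, the mucin of goblet cells, at 82.5, 66.5 and 3.69 FPKM in creeping fat and 2.87, 24.9 and 21.5 FPKM in controls, and Cdx1, an intestinal regulator of Hox genes, at 5.58, 4.22 and 0.40 against 0.015, 2.33 and 0.57 FPKM. The 11 colon epithelium genes summed to 19.8 to 158.1 FPKM in creeping fat and 26.0 to 94.7 FPKM in controls, and of 9 tested 0 were called by limma or by voom (1 in each direction at an unadjusted p under 0.05). By limma 9.35% of all genes tested were called higher and 6.81% lower. Of the 11, 5 had the same 3 highest libraries as Hoxb13. Others did not: Car1, a carbonic anhydrase, was highest in control 3 at 34.6 FPKM, and the sum of the list was higher in control 3 (94.7 FPKM) than in control 2 (78.1 FPKM). Their part in the Hoxb13 values was not tested.

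Hoxa13, Hoxd13, Hoxd11 and Hoxc11 were each lowest in creeping fat 2 among the creeping fat libraries. The same held for Hoxa6, Hoxa10, Hoxa11, Hoxc10, Hoxd3, Hoxd4, Hoxd8, Hoxd9 and Hoxd10, but for no tested Hoxb gene. The prostate genes Pbsn, encoding probasin, and Tgm4, a secreted transglutaminase, were too: Pbsn stood at 61.04, 5.34 and 42.6 FPKM in creeping fat and 0, 0.16 and 0 FPKM in controls. Tgm4 stood at 59.4, 6.37 and 40.1 FPKM and at 0.069, 0.37 and 0.16 FPKM. The 8 prostate genes of the table summed to 273.7 to 387.5 FPKM in creeping fat and to 19.0 to 39.9 FPKM in controls, and all 3 tested were called higher, although Pbsn and Tgm4 passed the filter only through creeping fat. The share called higher over all genes tested was 9.35%. Of the 8 prostate genes, 4 were lowest in creeping fat 2 among the creeping fat libraries. So were 10 of 12 leukocyte, 6 of 12 fibroblast and 9 of 23 Polycomb genes, but 1 of 11 seminal vesicle and 0 of 12 adipocyte genes. Being lowest there was thus not particular to prostate genes. Spink1, a trypsin inhibitor not limited to the prostate, gave most of that sum, at 148.9, 317.5 and 299.2 FPKM in creeping fat, and 2 genes of the list were at 0 in all controls. The seminal vesicle sum was lowest in creeping fat 1, where Hoxa13 and Hoxd13 were highest. The part of these glands in the Hox values was not tested.

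In control 2, where Hoxa9, Hoxa10, Hoxc9 and Hoxc10 were low, the mesothelial genes Upk3b and Msln were low too, with Upk3b at 37.8, 1.24 and 31.9 FPKM in the controls. Hoxb9 and Hoxd10, also of groups 9 and 10, were instead highest in control 2 among the controls. In creeping fat Upk3b stood at 1.25, 12.8 and 2.20 FPKM, while Hoxa10 was at 6.76, 3.93 and 4.74 FPKM. The 13 mesothelial genes summed to 54.5 FPKM in control 2 and 136.0 to 142.3 FPKM in the other controls, against 100.8 to 214.1 FPKM in creeping fat, and 2 of 13 were called higher there. That count stands beside 9.35% of all genes tested. In control 2, 11 of the 13 had their lowest control value, and so had 11 of 12 adipocyte genes, whose sum was 4319 FPKM there and 10744 and 11431 FPKM in controls 1 and 3. Leukocyte genes were high in control 2, where their sum of 620.2 FPKM compared with 170.6 and 248.2 FPKM in controls 1 and 3 and with 348.6 to 553.6 FPKM in creeping fat. Their part in the Hox values was not tested.

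Among the cofactors that bind DNA with Hox proteins, 3 of 8 tested genes were called higher in creeping fat and 0 lower, by limma and by voom, with 6 higher and 0 lower at an unadjusted p under 0.05. Over all genes tested 9.35% were called higher at the adjusted threshold. The share of all genes at the unadjusted cut is not given here, so the count of 6 has no background beside it. Pknox2 stood at 7.32, 7.95 and 7.11 FPKM in creeping fat and at 0.85, 1.53 and 1.02 FPKM in controls, a ratio of 6.57, with a fold change of 2.00 (SE 0.17, limma adjusted p = 0.001). Meis1, a partner of both Pbx and Hox proteins, stood at 15.8, 21.7 and 17.7 FPKM against 11.4, 8.43 and 10.1 FPKM and rose by 0.82 (SE 0.17, limma adjusted p = 0.022). The Meis1 call was lost without any 1 creeping fat library or control 3, with adjusted p of 0.055 to 0.083, and with quantile normalization it was 0.056. With the replicate number as a block the limma adjusted p of Meis1 was 0.096. Pbx2, an abundant member of the list at 16.6 ± 1.46 FPKM in creeping fat and 16.1 ± 4.43 FPKM in controls, had a fold change of 0.06 (SE 0.20). The median of the 8 genes was 0.57, and 6 of the 8 were higher in all creeping fat libraries than in any control, as were 20.2% of all genes tested.

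**Figure D5:**
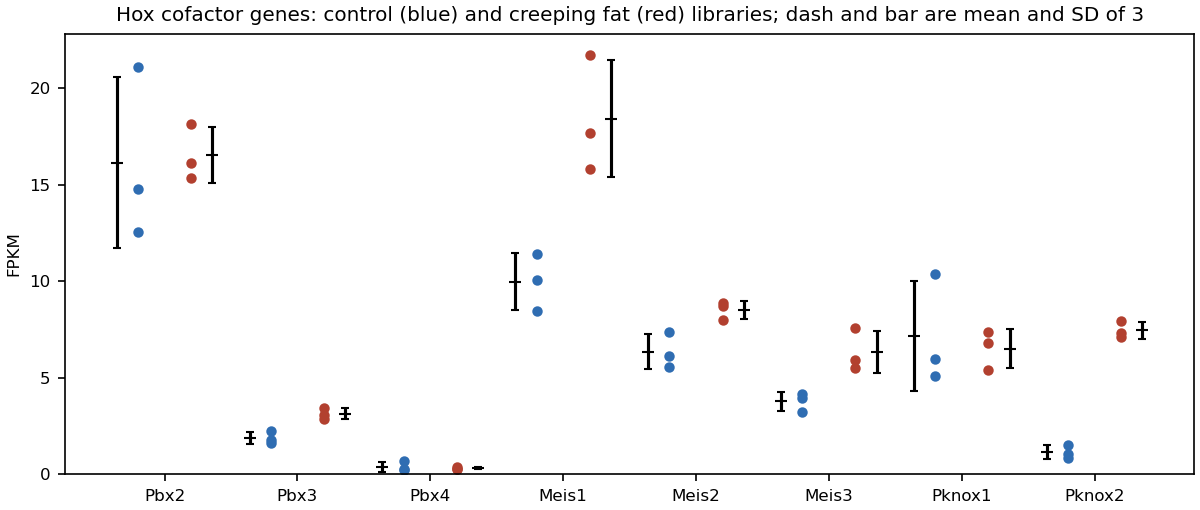
FPKM of 8 cofactor genes in control (blue) and creeping fat (red) libraries, with the mean and SD of 3 as a dash and bar. Pknox2 and Meis1 show groups that do not overlap and were called higher, while the groups of Pbx2, Pbx4 and Pknox1 overlap.

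Regulators acting upstream of Hox genes, the Cdx factors, retinoic acid receptors and enzymes, Gdf11 and Ctcf, held 0 calls among 8 tested genes by limma or voom, and 1 in each direction at an unadjusted p under 0.05. By the mean of both groups the most abundant were Rarg, a retinoic acid receptor, with 24.8 ± 1.81 FPKM in creeping fat and 16.8 ± 2.58 FPKM in controls (fold change 0.54, SE 0.15, limma adjusted p = 0.057), and Aldh1a2, which makes retinoic acid, with 17.1 ± 11.3 and 11.6 ± 3.53 FPKM (fold change 0.38, SE 0.44, limma adjusted p = 0.628). Of 23 Polycomb genes 4 were called higher and 0 lower by limma, 3 and 0 by voom, and 4 and 0 at an unadjusted p under 0.05. Over all genes tested limma called 9.35% higher and 6.81% lower at the adjusted threshold. The median fold change of the list was 0.07. Cbx6, a reader of repressive histone methylation, rose by 1.02 (SE 0.17, limma adjusted p = 0.010), from 17.7 ± 3.43 to 36.7 ± 3.33 FPKM. Rbbp7, a histone-binding subunit, rose by 0.61 (SE 0.12, limma adjusted p = 0.019), and Pcgf2, a ring finger subunit, rose by 0.57 (SE 0.15, limma adjusted p = 0.047). The fourth was Cbx8. Leaving out creeping fat 3 or control 3 ended the Cbx6 call (limma adjusted p = 0.051 for each). The calls of Rbbp7, Cbx8 and Pcgf2 were lost without any 1 creeping fat library or control 3, and those of Cbx8 and Pcgf2 also without control 1, with adjusted p of 0.074 to 0.171. With gland genes taken out of the scaling, Cbx8 and Pcgf2 had adjusted p of 0.051 and 0.068. With the replicate number as a block, Rbbp7, Cbx8 and Pcgf2 were not called (limma adjusted p of 0.105 to 0.143). Without a filter Cbx8 and Pcgf2 were not called (limma adjusted p = 0.069 and 0.084). Cbx8 was the gene not called by voom (adjusted p = 0.091).

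Of 14 genes of the opposing trithorax group and histone demethylases, 1 was called higher and 0 lower by limma, by voom and at an unadjusted p under 0.05, near the 9.35% of all genes called higher. The median fold change of the list was 0.01. Kdm5b, which removes methyl groups from active histone marks, rose by 0.64 (SE 0.15, limma adjusted p = 0.028), and the call was lost without any 1 creeping fat library, control 1 or control 3 (adjusted p of 0.073 to 0.122). Its call was also lost with the replicate number as a block (limma adjusted p = 0.108). Kmt2d, the most abundant of the list, had a fold change of -0.13 (SE 0.39), and Kmt2a, which maintains Hox transcription in blood cells, of -0.12 (SE 0.34). Noncoding RNAs of the Hox clusters were not analysed here.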

How the data were processed

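Total RNA (RNA integrity number of at least 7, per the labels' protocols) was sequenced with a stranded kit after ribosomal RNA removal. The authors deposited FPKM for 22134 genes in 6 libraries. The genome build, per the submitters' processing notes, was mm10. The sources used here do not give the aligner, counting program, annotation or strand setting. FPKM are relative to a library's total, so abundant gland transcripts lower all other values. Whole reads were recovered from the FPKM values for 18621 of 18714 genes above 0 (tolerance 0.002 reads), with GENCODE M21 lengths setting the scale.

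Genes with at least 1 FPKM in 3 of 6 libraries were compared on log2(FPKM + 1) with limma 3.58.1 in R 4.3.3 (mean-variance trend, group as the only term, two-sided), with Benjamini-Hochberg adjustment over 12812 genes and a threshold of 0.05. Tested on simulated data with 12812 genes, the fit called 55 of 100 genes changed by 1 and 92 of 100 changed by 2 on the log2 scale. An exact permutation test of 3 against 3 reaches 0.1 at the lowest and was not used. Counts at an unadjusted p under 0.05 are given without the share of all genes at that cut. Group and replicate came from sample titles. All Hox genes were to be named, and from each list of related genes up to 3 called members with the largest change each way and the 2 most abundant. Hox genes, marker lists and related lists were chosen with earlier results of these data known. Results of some genes are not reported here. A list of 22 noncoding RNA symbols matched 0 symbols of the table. Other settings numbered 13, and 2 more were added after the data were seen.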

Additional observations from a re-analysis of the deposited data

How the results depend on the processing

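The counts of called genes depended on the libraries kept. Leaving out 1 library at a time gave 576 to 2896 genes higher and 287 to 1857 lower over all genes tested, and 2 to 7 Hox genes higher and 2 to 10 lower, with the highest counts without control 2. Leaving out creeping fat 2 and control 2 together, chosen after the data were seen, gave 2713 higher and 1731 lower over all genes and 6 and 8 Hox genes. Without a filter 2 Hox genes were called higher, and 0 when the filter was a mean of 5 FPKM, which 5 Hox genes passed. Same-numbered libraries of both groups had correlations of deviations of -0.181, -0.18 and -0.081 across genes, and differently numbered ones of -0.138 to 0.243. The titles do not say whether the numbers pair the samples, and with 3 libraries a group these correlations cannot decide it. A fit with the replicate number as a block gave 636 genes higher and 378 lower, and 3 Hox genes each way, and Hoxb8 was no longer called. Cluster sums moved by less than 1 SD when gland genes were removed from the scaling. Leaving out 1 of 3 libraries cannot move a group mean by 1 SD, so that check says nothing about the sums.

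Fold changes that changed sign were all of genes not called with all libraries. When 1 library at a time was left out they ran from -0.22 to 0.067 for Hoxa3, from -0.027 to 0.37 for Hoxa5, from -0.20 to 0.12 for Hoxa6, from -0.57 to 0.32 for Hoxa9 and from -0.064 to 0.87 for Hoxa10. They ran from -0.12 to 0.21 for Hoxb4, from -0.045 to 0.28 for Hoxb6, from -0.044 to 0.20 for Hoxb7, from -0.96 to 0.39 for Hoxc10 and from -0.77 to 0.079 for Hoxd8. Without both creeping fat 2 and control 2, Hoxa3 (0.078), Hoxa6 (0.18) and Hoxa9 (-0.55) changed sign. With quantile normalization Hoxa9 (-0.12), Hoxb4 (-0.030) and Hoxb7 (-0.022) did so, with an added 0.1 FPKM Hoxc10 (0.096), and with limma's voom on recovered reads Hoxa6 (0.0077). The cause of these changes was not tested. Depth limits genes with few reads, such as Hoxc11 to Hoxc13 and Hoxd12.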

Other observations

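Genes that flank the Hox clusters were compared as a fixed list of 17, of which 13 were in the table and 9 were tested. By limma and by voom 0 were called higher and 0 lower (1 and 2 at an unadjusted p under 0.05). Shares over all genes tested were 9.35% higher and 6.81% lower by limma. The median fold change of the list was -0.14. The 2 most abundant were Atp5g2, a subunit of the mitochondrial ATP synthase, at 126.8 ± 11.5 FPKM in creeping fat and 135.9 ± 26.0 FPKM in controls, and Hibadh, an enzyme of valine breakdown, at 30.3 ± 4.41 and 75.7 ± 32.7 FPKM (SD, n = 3 each). Hibadh was lower in all creeping fat libraries (fold change -1.19, SE 0.36, limma adjusted p = 0.071), and Skap2, singled out after its values were seen, was higher in all of them (fold change 0.73, SE 0.23, limma adjusted p = 0.080). Evx2, the homeobox gene next to Hoxd13, stood at 0.065, 0.078 and 0.29 FPKM in creeping fat and at 0, 0.0058 and 0 FPKM in controls. It was under the filter and was singled out after its values were seen.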
